A study of Mus musculus with 24 samples.

Results

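RNA was compared between 2 mouse embryonic fibroblast (MEF) lines that sit one above the other in a single clonal series. The parental line, E1 S1S2, lacked Eset1 (Setdb1), Suv39h1 and Suv39h2, and its daughter line, 6KO1, carried these and in addition mutations in Eset2 (Setdb2), G9a (Ehmt2) and Glp (Ehmt1), so that all 6 known H3K9 methyltransferase genes were hit. The comparison was defined by these line labels and held 6 of the 24 libraries of the series, 3 per line, named replicates 1 to 3. Eset1 was floxed and was removed by tamoxifen-activated Cre recombinase, with 4-hydroxytamoxifen (4-OHT) at 1 µM for 2 days and 2 further days in plain medium, in both lines alike. The other genes had been disrupted by CRISPR/Cas9. The control of the series (WT) was the untreated conditional line from which both derive.

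Each line was a single clone picked under drug selection, and 3 cultures of a clone do not represent 3 independent mutants. Differences between the lines therefore hold the added mutations together with whatever else differs between the clones, and these cannot be told apart. Among fibroblast-defining transcripts, vimentin (Vim, an intermediate filament of mesenchymal cells) was abundant in all 6 libraries at 64527, 61132 and 63743 in E1 S1S2 and 34179, 35134 and 34575 in 6KO1, whereas Thy1, a fibroblast surface marker, was nearly absent at 0.783, 0 and 1.8 in E1 S1S2 and 0.879, 0 and 0 in 6KO1. Of the 13 of 14 fibroblast markers that could be tested, 5 were called higher in 6KO1 and 4 lower, by the rule given further down. These were 38.5% and 30.8%, against 16.3% and 5.02% of all genes tested. Vim and Thy1 were not called. Values are normalised read counts, that is counts scaled to a common library size with factors computed from genes.

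Methylation of histone H3 at lysine 9 marks silent chromatin. Suv39h1 and Suv39h2 place the trimethyl mark mainly at the satellite repeats beside centromeres, Eset1 is brought to endogenous retroviruses by zinc finger proteins and their partner Trim28, and G9a and Glp form a complex that places mono- and dimethyl marks over euchromatic domains and gene clusters. Eset2 is a less studied relative of Eset1. The step from E1 S1S2 to 6KO1 asks which genes and repeats differed once mutations in G9a, Glp and Eset2 were added. A gene low in E1 S1S2 need not have been silent in WT.

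Total counts per library ranged from 32003043 to 37419071 in E1 S1S2 and from 30046687 to 33800828 in 6KO1. Repeats took 15.8 to 16% of these counts in E1 S1S2 and 21.5 to 21.9% in 6KO1, and mitochondrial transcripts took 1.81 to 2.05% of gene counts in E1 S1S2 and 2.80 to 3.16% in 6KO1. The part of the mitochondrial difference in the results was not tested. The RNA of the disrupted genes is a limited check of the labels, since a frameshift need not lower a transcript and the floxed exons of Eset1 were gone from both lines. Ehmt2, which encodes G9a, counted 5433, 4631 and 5162 in E1 S1S2 and 1386, 1253 and 1223 in 6KO1 (log2 fold change -1.98, SE 0.092, adjusted p = 1.05e-14). The 2 groups lay far apart. Ehmt1, encoding Glp, stood at 2479, 2444 and 2544 in E1 S1S2 and 1394, 1297 and 1213 in 6KO1 (log2 fold change -0.94, SE 0.073, adjusted p = 1.45e-10), also without overlap but short of a 2-fold change. Setdb2 stood at 474, 519 and 492 in E1 S1S2 and 426, 387 and 401 in 6KO1 (log2 fold change -0.29, SE 0.087, adjusted p = 0.00614). Setdb1, Suv39h1 and Suv39h2, mutated on both sides, gave log2 fold changes of 0.015, -0.59 and -0.63, none of them called.

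A gene was called when it differed at least 2-fold with a Benjamini-Hochberg adjusted p of at most 0.01 in edgeR's quasi-likelihood test. Of 18565 genes tested, 3025 (16.3%) were higher in 6KO1 and 932 (5.02%) were lower, with a median log2 fold change of 0.053 over all genes. Most of the rises were in genes with little RNA in the parental line. Of the 3010 genes with a mean normalised count under 10 in E1 S1S2, 56.2% were called higher and 1.59% lower. Of the 5537 genes with a mean above 1000, 1.10% were called higher and 3.49% lower. By gene type, 237 of 500 long intergenic non-coding RNAs and 193 of 420 antisense RNAs were higher, against 2057 of 13491 protein-coding genes. Small nucleolar RNAs went the other way, with 6 of 301 higher and 45 lower. Low genes that pass a filter on counts do so through the line in which they are high, so that these shares describe the call set only.

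In 159 genes, all 3 E1 S1S2 libraries were under a normalised count of 10 and all 3 6KO1 libraries were above 100. The WT libraries were under 10 as well for 131 of them. The reverse pattern held for 26 genes, all protein-coding, of which 20 were above 100 in every WT library. The line 6KO2, of the second clonal series described further down, had the same 6 genes mutated. Of the 159 genes, 56 were above 100 in every 6KO2 library and 18 were under 10. Of the 26 genes, 15 were above 100 in every 6KO2 library and 0 were under 10.

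**Figure D1:**
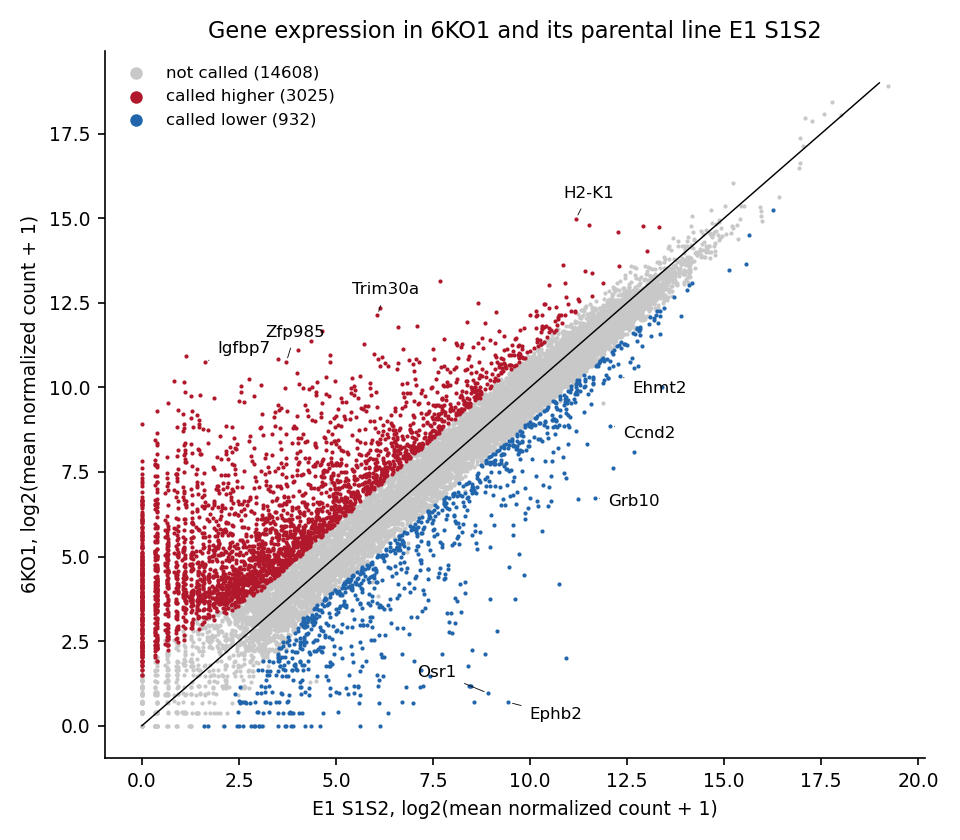
Each point is 1 of the 18565 genes tested, placed by its mean normalised count over the 3 E1 S1S2 libraries (x axis) and over the 3 6KO1 libraries (y axis), both as log2 of the count plus 1. The 3025 genes called higher fan out mostly over the left, where E1 S1S2 is low, and the 932 called lower include Ephb2 and Osr1 near the bottom edge.

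The largest rises among protein-coding genes with a symbol and a mean count of at least 100 began from almost no reads. Only genes without overlap between the 3 and 3 libraries were ranked, here and for the falls. Gm6871 (chr7:41545674-41573662), a predicted gene, had no read in E1 S1S2 and 228, 205 and 246 in 6KO1, at least 263-fold higher against a floor of 3 counts over the group. Dcdc2c, of the doublecortin domain family, also had none and reached 177, 191 and 216, at least 226-fold higher. Gm597, Tspoap1 and Kcnk10, a potassium channel gene, were likewise at 0 in all 3 parental libraries, and the bounds were 187-, 176- and 165-fold. The lines did not overlap in these 5 genes because the ranking required it. WT means were 0 for Gm6871 and Gm597, 0.69 for Dcdc2c and 2.29 for Kcnk10. Tspoap1 had a WT mean of 55.8, so it was expressed in the control and absent from the parental clone.

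Other genes rose from 1 to 7 reads. Igfbp7 (chr5:77349240-77408041), a secreted insulin-like growth factor binding protein, went from 0.783, 0.906 and 4.5 to 1668, 1754 and 1779.8 (log2 fold change 9.67, SE 0.26, adjusted p = 8.48e-18). Hs3st1, a heparan sulfate sulfotransferase, had 3 reads in E1 S1S2 and 1104, 1183 and 1204 in 6KO1 (ratio 1350.0, 95% counting interval 463 to 6570.0). Cox7b2, a testis form of a cytochrome c oxidase subunit, stood at 0, 0 and 1.8 in E1 S1S2 and 674, 809.5 and 762 in 6KO1 (ratio 1310.0, 95% counting interval 361 to 10800.0). In each of these genes every 6KO1 library was above every parental one, as the ranking required. Parm1, Gm364, Gm4841 and Prl3d2, a placental prolactin-family hormone, completed the 12 largest rises, with log2 fold changes of 9.93, 9.82, 9.72 and 10.58 that depend on the prior count of the fit where the parental reads number 0 to 3.

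The largest falls were of genes well expressed in the parental clone. Ephb2, an ephrin receptor kinase, went from 684, 667 and 737 in E1 S1S2 to 0, 0.87 and 0.978 in 6KO1, that is 2 reads in all (ratio 1150.0, 95% counting interval 318 to 9500.0, E1 S1S2 over 6KO1). This transcript was close to lost in all 3 6KO1 libraries. Hlf, a transcription factor of the PAR bZip family, stood at 375, 381 and 368 in E1 S1S2 and 0.879, 0 and 0.978 in 6KO1, and Osr1, a zinc finger factor of the mesenchyme, at 488, 487 and 471 in E1 S1S2 and 0.879, 0 and 1.96 in 6KO1. Gjb2 (connexin 26), Fgf5, Jph1 (a junctophilin), Dtna (a dystrobrevin), Asap2, Colec12, Tbc1d9 and Fbln1 (fibulin 1) fell as well, by log2 values between -6.83 and -8.05. Asap2 shares 1153 exonic bases with another gene on its strand. Of these genes, Dtna, Jph1 and Colec12 were higher in the G9a and Glp step of the second clonal series described further down (log2 fold changes 3.25, 2.18 and 1.15).

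Genes of innate immunity rose across several lists, and in none of the 5 lists was a member called lower. Cells recognise double-stranded RNA through receptors such as Rig-I (Ddx58), Mda5 (Ifih1) and Tlr3, which signal by way of adaptors and kinases to interferon regulatory factors. Secreted interferon then acts through Stat2, Irf9 and their partners on a large set of interferon-stimulated genes, many of which carry an interferon-stimulated response element (ISRE) in their promoter. Over all genes tested 16.3% were higher and 5.02% lower, shares to set beside this and every later count of called list members. At the share of 5.02%, lists this small would hold few falls. Of 18 of 18 double-stranded RNA sensors and adaptors that could be tested, 12 were higher and 0 lower, with a median log2 fold change of 1.56. Of 30 of 32 interferon-stimulated genes 19 were higher and 0 lower (median 1.39). Of 15 of 15 genes of MHC class I antigen presentation 12 were higher and 0 lower (median 3.30), and of 17 of 18 retroelement restriction factors 11 were higher and 0 lower (median 2.73).

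The promoters of 4 of these genes are shown because their RNAs moved together and because the shared letters can be read in them. Each runs from 250 bases before to 50 bases after the gene's start in RefSeq on GRCm38.p6, 5′ to 3′ on the gene's strand. Capitals mark the ISRE core, searched as GAAANNGAA on both strands, where N is any base.

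Oas1a (chr5:120907476-120907775, - strand): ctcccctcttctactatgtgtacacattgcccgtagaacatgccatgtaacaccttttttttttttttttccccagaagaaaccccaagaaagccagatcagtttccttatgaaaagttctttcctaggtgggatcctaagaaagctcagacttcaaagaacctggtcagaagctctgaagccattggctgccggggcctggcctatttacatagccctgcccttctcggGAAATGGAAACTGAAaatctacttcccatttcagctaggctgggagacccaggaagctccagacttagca
Ifi44 (chr3:151749861-151750160, - strand): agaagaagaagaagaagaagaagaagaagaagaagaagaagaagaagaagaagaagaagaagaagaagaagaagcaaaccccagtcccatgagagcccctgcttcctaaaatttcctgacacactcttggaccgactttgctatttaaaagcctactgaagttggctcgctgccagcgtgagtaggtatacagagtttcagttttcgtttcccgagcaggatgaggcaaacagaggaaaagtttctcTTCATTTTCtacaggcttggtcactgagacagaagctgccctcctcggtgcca
Trim30a (chr7:104465144-104465443, - strand): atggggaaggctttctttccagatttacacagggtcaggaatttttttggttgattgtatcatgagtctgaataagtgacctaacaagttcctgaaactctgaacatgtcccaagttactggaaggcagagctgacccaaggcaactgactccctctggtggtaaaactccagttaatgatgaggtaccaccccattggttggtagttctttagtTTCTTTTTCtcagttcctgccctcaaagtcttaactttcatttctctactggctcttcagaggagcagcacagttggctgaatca
B2m (chr2:122147437-122147736, + strand): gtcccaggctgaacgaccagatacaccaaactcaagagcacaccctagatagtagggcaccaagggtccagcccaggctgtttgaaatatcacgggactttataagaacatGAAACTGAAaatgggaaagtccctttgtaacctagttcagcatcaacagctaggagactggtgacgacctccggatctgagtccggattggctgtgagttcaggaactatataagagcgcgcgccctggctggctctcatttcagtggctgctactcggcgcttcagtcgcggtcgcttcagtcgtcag

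Counted from the gene's start, the core began at -20 and -14 in Oas1a, at -3 in Ifi44, at -35 in Trim30a and at -139 in B2m. Among called genes with a RefSeq promoter, it was found in 5 of 8 double-stranded RNA sensors, 9 of 12 interferon-stimulated genes, 6 of 11 restriction factors and 2 of 10 MHC class I genes. Of all 27025 promoters of this length, 8.57% held it. H2-K1, H2-D1, Tap1 and Irf7 had no match in this window. The other motifs searched on both strands, the E-box (CACGTG), the E2F6 motif (GCGGGAA) and the cyclic AMP response element (TGACGTCA), were in 7.24%, 4.66% and 1.88% of all promoters and in none of the called genes of these 4 lists. A match is a run of letters, and binding of a factor was not measured. The ISRE core was not confined to immune lists, since 4 of 8 called 2-cell stage genes held it as well. That list includes multicopy genes, and the Oas, Trim and Slfn genes lie in clusters of related copies. Matches within such families need not be independent. In the other lists searched it was in 2 of 26 zinc finger genes, 1 of 8 extracellular matrix genes and 0 of 12 placental genes.

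Among the RNA sensors, the oligoadenylate synthetases, which make a second messenger when they bind double-stranded RNA, differed most. Oas1g stood at 25.8, 22.6 and 15.3 in E1 S1S2 and 899, 908 and 1013 in 6KO1 (log2 fold change 5.45, SE 0.15, adjusted p = 1.15e-18). Oas1a stood at 74.4, 77 and 89 in E1 S1S2 and 1463, 1652 and 1665 in 6KO1 (log2 fold change 4.31, SE 0.14, adjusted p = 2.18e-17) and Oas3 at 225, 190.2 and 238 in E1 S1S2 and 2855, 2764 and 2639 in 6KO1 (log2 fold change 3.66, SE 0.20, adjusted p = 1.51e-13). In all 3 the lines were separated by about an order of magnitude or more, though the Oas1 genes are near-copies in 1 cluster and the division of reads among them is uncertain. The cytosolic receptors started from higher levels and rose less, Ifih1 from 1609, 1674 and 1639.6 to 5130.3, 5402 and 5551 (log2 fold change 1.71, SE 0.072, adjusted p = 1.63e-15) and Ddx58 from 1671, 1696 and 1719 to 4204, 4231 and 4449.6 (log2 fold change 1.34, SE 0.14, adjusted p = 1.14e-08). Tlr3, the endosomal receptor, rose from 124, 132 and 118 to 567, 588 and 602 (log2 fold change 2.23, SE 0.13, adjusted p = 1.30e-12). The adaptors of these receptors were not called, with log2 fold changes of -0.027 for Mavs and 0.0066 for Ticam1. In 6KO2, means were 21.6 for Oas1g, 89.4 for Oas1a and 135 for Oas3, against 21.25, 80.1 and 218 in E1 S1S2. Tlr3 and Ddx58 had 6KO2 means of 305 and 2086, between those of E1 S1S2 and 6KO1. The cause of this difference between 6KO1 and 6KO2 was not tested.

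The transcription factors of the interferon response differed in size. Irf7, which drives interferon genes, stood at 325, 261 and 313 in E1 S1S2 and 2328, 2354 and 2389 in 6KO1 (log2 fold change 2.97, SE 0.23, adjusted p = 9.92e-11). Irf9 stood at 819.6, 822 and 820.2 in E1 S1S2 and 2291, 2409 and 2401 in 6KO1 (log2 fold change 1.53, SE 0.18, adjusted p = 1.80e-07). Stat2 and Irf1, from the same pathway, were not called, at 0.70 and 0.28. The effectors followed a wide range. Ifi44, of unclear function, went from 38.4, 39 and 48.6 to 1225, 1212 and 1318 (log2 fold change 4.90, SE 0.28, adjusted p = 4.71e-13), and Usp18, which removes Isg15 from proteins and damps the interferon receptor, from 142, 130.4 and 148 to 1582, 1776 and 1835 (log2 fold change 3.62, SE 0.28, adjusted p = 9.63e-11). Other classical targets, already abundant in E1 S1S2, were not called. Cxcl10, a chemokine, stood at 4893, 5082 and 4742 in E1 S1S2 and 5765, 6312 and 6221 in 6KO1 (log2 fold change 0.31), and Ifit2 at 3638, 3939 and 3683 in E1 S1S2 and 4236, 4732 and 4718 in 6KO1 (log2 fold change 0.28).

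MHC class I molecules present peptides from the cytosol at the cell surface. The heavy chain H2-K1 (chr17:33996017-34000347) rose from 2413, 2202 and 2361 to 31780.4, 32995 and 32464 (log2 fold change 3.80, SE 0.11, adjusted p = 1.36e-18), and H2-D1 from 3027, 2777 and 2979 to 28957, 30019 and 27275 (log2 fold change 3.30, SE 0.088, adjusted p = 4.63e-19). B2m, the light chain common to all class I molecules, rose from 4879, 5089 and 4875 to 22603, 25753 and 25787 (log2 fold change 2.32, SE 0.14, adjusted p = 1.73e-12). In these 3 genes every 6KO1 library was above every parental one. Nlrc5, the transactivator of class I genes, rose from 126, 139 and 138 to 3907, 3490.4 and 3384 (log2 fold change 4.75, SE 0.15, adjusted p = 9.75e-18). The peptide transporter Tap1 and the immunoproteasome subunit Psmb9, neighbours that share a promoter region, rose by 2.68 and 4.72, whereas Psmb10 and Tapbp stood at -0.21 and -0.058 and were not called. H2-Q4 rose from 61.1, 70.7 and 75.5 to 5370.3, 5385 and 5010.0 and H2-Q6 from no read to 65.9, 53.1 and 46.9, at least 64.8-fold, but H2-Q genes are near-identical copies and reads can be assigned to the wrong one.

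Restriction factors act against retroviruses and retrotransposons, though action of the list's members on such elements was not measured here. Apart from Apobec3 and Adar, all called members lay in gene clusters whose neighbours rose together. These were Slfn1, Slfn2, Slfn3, Slfn4, Slfn8 and Slfn9 of the Schlafen cluster and Trim5, Trim12c and Trim30a of the Trim cluster. Cluster neighbours share sequence, so the called share of this list does not rest on independent genes. Trim30a, a member of the Trim cluster on chromosome 7, rose from 74.4, 60.7 and 63 to 4322, 4431 and 4704 (log2 fold change 6.08, SE 0.17, adjusted p = 1.14e-18). Slfn4 and Slfn2, of the Schlafen cluster on chromosome 11, rose from 0.783, 1.81 and 0.899 to 872, 938 and 978 (log2 fold change 9.52, SE 0.24, adjusted p = 8.83e-16) and from 14.9, 19 and 22.5 to 912, 1041 and 1042 (log2 fold change 5.73, SE 0.14, adjusted p = 1.63e-18). These 3 genes were near the detection limit or low in every parental library and abundant in every 6KO1 library. Apobec3, a cytidine deaminase that edits retroviral DNA, rose from 43, 30.8 and 42.3 to 266, 271 and 238 (log2 fold change 2.73, SE 0.18, adjusted p = 5.83e-12). Samhd1, Zc3hav1, Mov10 and Bst2 had log2 fold changes of 0.35, 0.55, 0.58 and 0.97 and were not called.

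Of 13 of 15 DNA sensors and Toll-like receptors 6 were higher (46.2%, against 16.3% of all genes) and 0 lower (against 5.02%). Aim2, a sensor of cytosolic DNA in a cluster of interferon-inducible genes, went from 11.7, 19 and 16.2 to 1007, 1099 and 1151 (log2 fold change 6.12, SE 0.18, adjusted p = 2.80e-18), and Tlr4, the receptor for bacterial lipopolysaccharide, from 355, 332 and 314 to 1342, 1571 and 1544 (log2 fold change 2.15, SE 0.11, adjusted p = 8.63e-14). The WT mean of Aim2 was 102, above every E1 S1S2 library. In the cGAS and STING pathway neither Cgas, at 0.037, nor Tmem173 (STING), at 0.24, was called. Blood cell genes also moved. Cd68, a lysosomal protein of macrophages, rose from 139, 106 and 132 to 482, 528 and 466, Itgam from 0.783, 1.81 and 0.899 to 65.9, 62.7 and 57.7 and Ptprc (CD45), the defining marker of blood cells, from no read to 15.8, 16.5 and 14.7, while Cd3e had no read. These were 3 of 4 tested blood markers, with a summed level of 116 to 146 in E1 S1S2 and 543 to 618 in 6KO1, and their part in the immune results was not tested. In bulk RNA, more cells of a type and more RNA per cell cannot be told apart.

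**Figure D2:**
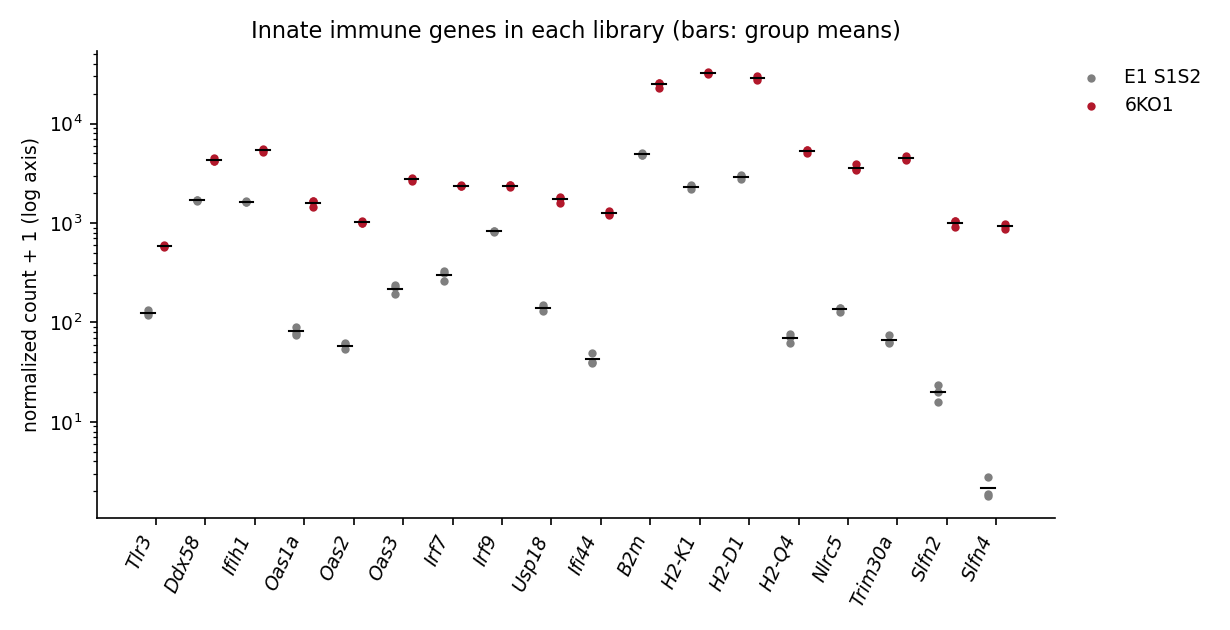
Normalised counts plus 1 (log axis) of 18 innate immune genes in each library, grey for the 3 E1 S1S2 libraries, red for the 3 6KO1 libraries, with a bar at each group's mean. The 2 lines do not overlap in any of the genes drawn, and H2-K1, H2-D1 and B2m are the most abundant of them.

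Part of the p53 target list was higher. p53 is a transcription factor activated by DNA damage and other stress that induces arrest and death genes. Of 24 of 24 targets 9 were higher and 1 lower, with a median log2 fold change of 0.63. These were 37.5% and 4.17%, against 16.3% and 5.02% of all genes. Cdkn1a (p21), an inhibitor of cyclin-dependent kinases, rose from 827, 872 and 882 to 3263, 3357 and 3229 (log2 fold change 1.93, SE 0.058, adjusted p = 3.92e-18), and Trp53inp1 from 964, 1091 and 985 to 4318, 4606 and 4678 (log2 fold change 2.16, SE 0.065, adjusted p = 3.93e-18). The death receptors Eda2r and Fas rose from 108, 129 and 141 to 1544, 1743 and 1689.9 (log2 fold change 3.72, SE 0.11, adjusted p = 1.97e-18) and from 121, 90.6 and 107 to 773, 876 and 868 (log2 fold change 2.98, SE 0.22, adjusted p = 4.53e-11). The 2 lines were separated in each of these 4 genes. Mdm2, the feedback inhibitor of p53, and Ccng1 stood at 0.69 and 0.97, and the apoptotic effectors Bax, Bbc3 and Pmaip1 at 0.51, 0.40 and -0.38, none of them called. Trp53 itself stood at -0.16. Perp, the target that fell, was low at 22.7, 25.4 and 26.1 in E1 S1S2 and 6.16, 13.9 and 11.7 in 6KO1.

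Of 30 cell cycle genes, 1 was called, Ccnd2 (cyclin D2), which fell from 4269, 4308 and 4293 to 467, 445 and 481 (log2 fold change -3.21, SE 0.058, adjusted p = 6.44e-22). The median was -0.29, and 20 genes (66.7%) were lower and 2 (6.67%) higher at an unadjusted p under 0.05, against 29.4% and 37.3% of all genes tested. Cdk1, Cdk2, Cdk4, Cdk6 and Cdk7 had log2 fold changes of -0.77, -0.57, -0.94, -0.66 and -0.44. Among 10 inhibitors and pocket proteins, Cdkn1a and Rb1 were higher, Rb1 from 494, 575 and 558 to 1205, 1176 and 1305 (log2 fold change 1.18, SE 0.073, adjusted p = 2.24e-12), while Cdkn2a, the p16 and p19 locus, stood at -0.51.

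Among 18 MAP kinase and stress kinase genes, 1 was higher and 3 were lower (5.56% and 16.7%, against 16.3% and 5.02% of all genes). Mapk10 (Jnk3), a kinase known from neurons, rose from 2.35, 0 and 2.7 to 596, 561 and 596 (log2 fold change 8.31, SE 0.32, adjusted p = 3.93e-16). Map3k5 (Ask1) fell from 29.8, 30.8 and 37.8 to 0.879, 0 and 1.96, 3 reads in all (ratio 36, 95% counting interval 12 to 177, E1 S1S2 over 6KO1), Map2k6 from 98.6, 102 and 103 to 25.5, 34.8 and 31.3 and the phosphatase Dusp1 from 1917, 1953 and 1839 to 808, 781 and 812. The integrated stress response, which slows translation, had 1 called gene of 14, Sesn2 (1.14), also a p53 target. Mapk11 and Pik3r5 stood at -0.84 and 0.57 and were not called.

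Zinc finger genes of the Zfp700 to Zfp999 range, many of which encode KRAB repressors of endogenous retroviruses, showed 31 rises and 0 falls among 117 of 130, with a median of 0.46. The rises were 26.5% of those tested, against 16.3% of all genes, of which 5.02% fell. Of the 31, 11 lay on chromosome 4, where 16 were tested, and 7 on chromosome 7, where 24 were. Zfp985 went from 8.61, 9.96 and 18 to 1652, 1741 and 1787 (log2 fold change 7.15, SE 0.19, adjusted p = 8.81e-18), Zfp990 from 2.35, 5.43 and 6.3 to 703, 796 and 841 (log2 fold change 7.37, SE 0.25, adjusted p = 3.30e-15) and Zfp987 from 0.783, 0.906 and 1.8 to 249.7, 269 and 329 (log2 fold change 7.80, SE 0.28, adjusted p = 3.30e-11). Each was low in the parental line and well expressed in the daughter. Zfp936 on chromosome 7 rose from 1 read to 311, 326 and 349 (ratio 1150.0, 95% counting interval 205 to 45300.0). Counts within the chromosome 4 cluster are uncertain where a read matches more than 1 copy. Promoters of a pair of its genes are shown because they illustrate how alike the copies are. The promoters of Zfp985 and Zfp987 from RefSeq (GRCm38.p6, 250 bases before to 50 after the start) were identical at 268 of 315 aligned positions (85.1%). Capitals mark their longest shared run, of 50 bases.

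Zfp985 (chr4:147553027-147553326, + strand): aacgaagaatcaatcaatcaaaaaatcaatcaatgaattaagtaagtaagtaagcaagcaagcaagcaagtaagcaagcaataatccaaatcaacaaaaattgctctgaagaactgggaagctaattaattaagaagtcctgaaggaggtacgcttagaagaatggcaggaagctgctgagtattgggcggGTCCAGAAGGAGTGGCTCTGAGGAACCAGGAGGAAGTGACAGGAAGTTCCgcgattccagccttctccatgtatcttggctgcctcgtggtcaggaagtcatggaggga
Zfp987 (chr4:146097062-146097361, + strand): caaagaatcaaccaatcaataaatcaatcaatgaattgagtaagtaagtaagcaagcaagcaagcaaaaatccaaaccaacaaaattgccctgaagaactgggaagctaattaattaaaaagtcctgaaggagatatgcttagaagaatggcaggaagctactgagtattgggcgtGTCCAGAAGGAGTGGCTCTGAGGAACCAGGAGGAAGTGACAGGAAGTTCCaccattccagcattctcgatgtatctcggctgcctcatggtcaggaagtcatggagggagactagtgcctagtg

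Genes normally confined to placenta, germline or the early embryo were mostly undetected, and those that passed the count filter did so largely through 6KO1 or the second series, so that their counts describe the filtered members only. Of 67 placental genes 15 were tested, of which 13 were higher and 1 lower. The prolactin-family hormones Prl3d2 and Prl2c3 went from 0, 0 and 0.899 to 565, 664 and 655 and from 11, 21.7 and 26.1 to 2397, 2802 and 2664 (log2 fold change 7.08, SE 0.17, adjusted p = 1.41e-19). Plac1 was the exception, falling from 73.6, 82.4 and 74.7 to 34.3, 35.7 and 36.2. Of 44 germline and meiosis genes 16 were tested, with 5 higher and 1 lower. Tex19.1, a germ-cell factor that restrains retrotransposons, rose from 8.61, 12.7 and 10.8 to 439, 457 and 445 (log2 fold change 5.38, SE 0.19, adjusted p = 8.13e-17), and Meiob, a meiotic DNA-binding protein, from 1.57, 2.72 and 3.6 to 96.7, 99.2 and 102 (log2 fold change 5.20, SE 0.32, adjusted p = 4.46e-11). Piwil2, which loads piRNAs, rose from 14.1, 10.9 and 16.2 to 47.5, 47.9 and 53.8. Ddx25, Tdrd9 and Brdt were not called. Rhox5, an X-linked homeobox gene of testis, rose from 16.4, 33.5 and 21.6 to 3068, 3299.8 and 3415 (log2 fold change 7.11, SE 0.12, adjusted p = 1.61e-22).

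The 2-cell stage genes, which mark the first activation of the mouse embryo, rose from low levels. All 10 that could be tested, of 21, were higher, and their summed level went from 108 to 132 in the E1 S1S2 libraries to 433 to 506 in the 6KO1 libraries. Usp17la stood at 7.83, 5.43 and 8.1 in E1 S1S2 and 130.1, 134 and 134 in 6KO1 (log2 fold change 4.19, SE 0.21, adjusted p = 4.53e-14) and Zfp352 at 7.04, 5.43 and 4.5 in E1 S1S2 and 34.3, 20.9 and 15.7 in 6KO1 (log2 fold change 2.03, SE 0.40, adjusted p = 1.73e-04). The Zscan4 and Usp17l genes are multicopy and their single values are uncertain. MERVL-int, the retrovirus expressed at that stage, stood at 4598, 5149.8 and 4835 in E1 S1S2 and 9550.1, 9528 and 9099 in 6KO1 (log2 fold change 0.95, SE 0.11, adjusted p = 4.08e-10), just under the 2-fold limit.

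Clustered protocadherins, cell-surface recognition molecules of neurons, had a negative median. Of 35 of 58, 1 was higher and 9 were lower (2.86% and 25.7%, against 16.3% and 5.02% of all genes), with a median of -0.82. Pcdhgb6 fell from 146, 119.6 and 131 to 22, 26.1 and 12.7 (log2 fold change -2.68, SE 0.22, adjusted p = 2.90e-10) and Pcdhgc4 from 213, 231 and 245 to 84.4, 65.3 and 72.4 (log2 fold change -1.63, SE 0.13, adjusted p = 3.34e-10), without overlap. Pcdhb17 fell from 8.61, 5.43 and 7.2 to no read, at least 7.89-fold lower. Variable exons of the gamma cluster share constant exons, and Pcdhb21 and Pcdhb22 overlap on 1 strand, so reads may be divided among members.

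Imprinted genes, expressed from 1 parental allele, moved in both directions, 7 higher and 8 lower of 31 of 40 (22.6% and 25.8%, against 16.3% and 5.02% of all genes). Grb10, an adaptor that inhibits insulin signalling, fell from 3353, 3246 and 3229.7 to 108, 104 and 105 (log2 fold change -4.96, SE 0.062, adjusted p = 1.32e-24). Igf2 and Plagl1 fell from 109.6, 77.9 and 96.2 to 7.91, 3.48 and 7.82 and from 71.2, 68.8 and 71 to 1.76, 4.35 and 3.91, and H19 from 5.48, 7.25 and 5.4 to no read. Peg3 rose from 1.57, 2.72 and 3.6 to 93.2, 94.9 and 97.8 (log2 fold change 5.14, SE 0.27, adjusted p = 7.91e-14) and Dlk1 from 23.5, 19 and 32.4 to 420.3, 352 and 329 (log2 fold change 3.87, SE 0.22, adjusted p = 3.17e-13). Of 29 of 39 Hox genes 1 was higher and 3 were lower (3.45% and 10.3%, against the same shares of all genes). Hoxb13 fell from 46.2, 37.1 and 55.8 to 0, 2.61 and 0.978 (log2 fold change -5.12, SE 0.49, adjusted p = 4.65e-09), Hoxb7 and Hoxa7 fell by log2 values of -1.64 and -1.34, and Hoxc12 rose by 1.10, a call lost without E1 S1S2 replicate 3 (0.99) or 6KO1 replicate 1 (0.94).

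**Figure D3:**
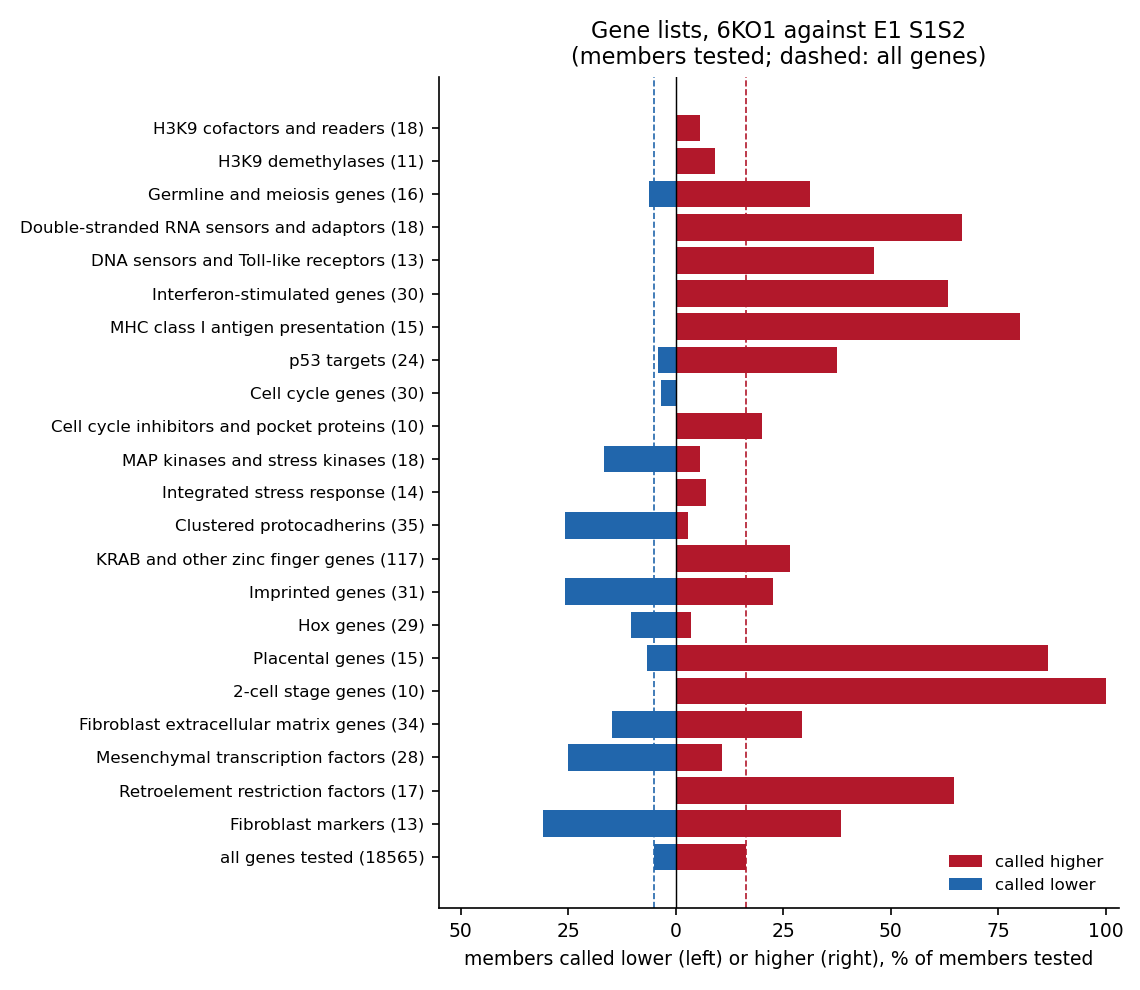
For each gene list, the share of its tested members called higher (red, to the right) or lower (blue, to the left) in 6KO1, with the number tested in brackets and dashed lines at the shares over all 18565 genes, 16.3% and 5.02%. Bars of lists with few tested members rest on genes that passed the count filter, and lists of immune genes extend far to the right while protocadherins extend to the left.

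Genes of the fibroblast programme changed in both directions. Of 34 of 36 extracellular matrix genes 10 were higher and 5 lower (29.4% and 14.7%, against 16.3% and 5.02% of all genes). Col1a1, the main chain of type I collagen, fell from 49022, 43502 and 52375 to 15608, 10745 and 11859 (log2 fold change -1.92, SE 0.16, adjusted p = 2.62e-10), whereas its partner chain Col1a2 rose from 8546, 7762 and 8709 to 17984, 15790.2 and 16688 (log2 fold change 1.01, SE 0.094, adjusted p = 2.89e-09). The opposite direction of the chains held in every library. Col3a1 rose from 2921, 2541 and 2770.1 to 11421, 11126 and 10919.6 (log2 fold change 2.02, SE 0.071, adjusted p = 5.59e-17), the proteoglycan Bgn from 1887, 1769.7 and 1893 to 12341, 12447 and 12619 (log2 fold change 2.75, SE 0.054, adjusted p = 2.47e-21) and Col6a3 from 7.04, 4.53 and 1.8 to 328, 327 and 299 (log2 fold change 6.08, SE 0.28, adjusted p = 9.89e-15). Postn and Fbln5 fell by log2 values of -2.77 and -1.66, and Dcn from 48.5, 37.1 and 55.8 to 0, 1.74 and 0.

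Of 28 of 32 mesenchymal transcription factors 3 were higher and 7 lower. Twist1, a basic helix-loop-helix factor of mesenchyme, fell from 358, 324 and 283 to 21.1, 21.8 and 10.8 (log2 fold change -4.14, SE 0.17, adjusted p = 1.10e-15), and Gata6 from 434, 422 and 397 to 53.6, 47 and 55.7 (log2 fold change -3.00, SE 0.13, adjusted p = 4.65e-15). Tbx5, Sox9, Tbx18 and Foxc1 fell by -2.80, -2.07, -1.48 and -1.09. Prrx1 rose from 477, 539.8 and 501 to 1686, 1694 and 1718 (log2 fold change 1.75, SE 0.13, adjusted p = 3.36e-11), as did Msx2 and Tbx2. The receptors Pdgfra and Fap, both used as fibroblast markers, went apart, Pdgfra falling from 83.8, 68.8 and 72 to 1.76, 1.74 and 5.87 and Fap rising from 3.91, 4.53 and 7.2 to 89.7, 82.7 and 78.2.

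Markers of other cell types were partly too low to test. Over all genes tested, 16.3% were higher and 5.02% lower. Of 5 of 10 muscle markers 4 were higher and 0 lower, with a summed level of 111 to 121 in E1 S1S2 and 366 to 399 in 6KO1, and 1 of these calls, Myf6, was lost under several alternatives. Of 4 of 8 adipocyte markers 3 were higher and 0 lower (11.7 to 16.3 in E1 S1S2 and 276 to 322 in 6KO1), of 5 of 8 endothelial markers 4 were higher and 1 lower (44.1 to 54.8 and 191 to 230), and of 5 of 9 epithelial markers 2 were higher and 1 lower (283 to 360 and 685 to 736). Of 3 of 8 pluripotency markers 2 were higher, Dppa4 and Esrrb (12.7 to 14.1 and 89.7 to 107), the latter not without 6KO1 replicate 1. Of 5 of 10 neural markers 1 was higher (Stmn2) and 0 lower, and their summed level, which Nes made up for the most part, was 19786 to 21462 in E1 S1S2 and 11711 to 13277 in 6KO1. The part of such cells in the results was not tested. Pparg, the adipocyte nuclear receptor, had 3 reads in E1 S1S2 and 240.0, 247 and 268 in 6KO1 (ratio 292, 95% counting interval 99.7 to 1420.0), while its partner Cebpa stood at 1.57, 5.43 and 0.899 in E1 S1S2 and 1.76, 0 and 0 in 6KO1. Krt14, a keratin of basal epithelium, rose from 3.91, 2.72 and 1.8 to 233, 262 and 242 (log2 fold change 6.36, SE 0.23, adjusted p = 1.58e-16), and Epcam stood at 2.35, 4.53 and 3.6 in E1 S1S2 and 3.52, 0.87 and 0 in 6KO1. In both pairs 1 marker was called and the other was not. Cdh5, the endothelial cadherin, had 2 reads in E1 S1S2 and 73, 56.6 and 59.6 in 6KO1 (ratio 110.0, 95% counting interval 30.2 to 917), and Kdr fell from 27.4, 19 and 23.4 to 4.4, 4.35 and 9.78. Desmin (Des) of muscle rose from 95.5, 89.7 and 90.8 to 320.0, 332 and 309, and Pou5f1 of pluripotent cells stood at 7.04, 10.9 and 6.3 in E1 S1S2 and 10.6, 3.48 and 1.96 in 6KO1.

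Few of the other chromatin genes were called. Of 18 cofactors and readers of H3K9 methylation, 1 was called, the chromodomain gene Cdyl2, which rose from 259.9, 242 and 228 to 785, 688 and 689 (log2 fold change 1.57, SE 0.099, adjusted p = 3.28e-12). The HP1 genes Cbx5, Cbx1 and Cbx3 stood at -0.47, -0.30 and -0.042, and Trim28 at -0.25. Among 11 H3K9 demethylases Kdm4d alone was called, from 3.13, 0 and 1.8 to 6.16, 10.4 and 10.8, a low gene whose call was lost when any of 4 libraries was left out. Among 9 genes of DNA methylation Tet1, a dioxygenase that oxidises methylcytosine, fell from 107, 109 and 114 to 26.4, 15.7 and 25.4 (log2 fold change -2.29, SE 0.19, adjusted p = 3.04e-10), and Dnmt1, Dnmt3a and Dnmt3b stood at 0.12, -0.23 and -0.25.

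Some called genes lay side by side. There were 50 stretches of at least 5 tested neighbours that were all higher, and 8 that were all lower. How many stretches the shares of called genes alone would give was not computed. The longest held 15 genes at chr1:85027954-85778643 from Gm7582 to A630001G21Rik and included Sp100, Sp110 and Sp140, which encode proteins of nuclear bodies, with a median log2 fold change of 5.27. Csprs, a relative of Sp100 on an unplaced scaffold, went from 0.783, 2.72 and 1.8 to 475, 454 and 526. A stretch of 13 predicted genes at chr14:41348609-43115190 had a median of 7.51. Some of these stretches were known gene clusters. The Schlafen cluster (Slfn9 to Gm23444, chr11:82978390-83271688) had 12 genes with a median of 4.49, the Aim2 to Mndal cluster on chromosome 1 had 10 with 4.87, the Trim6 to Trim30d cluster on chromosome 7 had 10 with 5.57, and the prolactin cluster on chromosome 13 had 10 with 5.22. Members of such clusters share sequence, so that they are not independent.

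The longest stretch of falls held Ank2, an ankyrin, and 12 neighbouring annotated transcripts at chr3:126921612-127499350 (median -2.72), and another of 8 lay at chr1:137898595-138000384 (median -6.46), from Gm4258 to A430106G13Rik. By chromosome, medians ranged from -0.40 on X and -0.37 on chromosome 10 to 0.29 on chromosome 3. On chromosome 10, 11.5% of genes were lower and 9.94% higher, and on X 11.2% were lower and 14.7% higher. Whether the clones differ in chromosome copy number was not tested.

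Repeat elements rose far more often than they fell. Endogenous retroviruses belong to the LTR class, with ERVK elements such as the intracisternal A particles (IAP) as its youngest and most active members in the mouse, L1 elements to the LINE class, and the major satellite (GSAT_MM) forms the bulk of pericentric heterochromatin. Of 1207 repeat elements tested, 286 (23.7%) were higher in 6KO1 and 6 (0.497%) lower, with a median log2 fold change of 0.35. The summed LTR count was 1050761, 1097164 and 1088051 in E1 S1S2 and 2228576, 2204972 and 2218439.9 in 6KO1, a ratio of 2.06 ± 0.048 (SD, n = 3 per line). The ratio was 1.74 ± 0.15 for LINE and 3.12 ± 0.27 for satellites. In these 3 classes the lines did not overlap, with an exact two-sided permutation p of 0.1, the smallest that 3 against 3 libraries allow. SINE and DNA transposons overlapped between lines, with ratios of 0.940 (exact permutation p = 0.3) and 0.967 (exact permutation p = 0.7).

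Scaling with factors from the repeats themselves moved the median of all repeat elements by about -0.41, and 190 elements were then higher and 34 lower. Under that scaling the log2 fold change of IAPEz-int was 3.75, that of MMERVK10C-int 1.96 and that of GSAT_MM 2.23, so these elements rose relative to other repeats as well.

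Within the LTR class the ERVK family dominated, with 138 of 270 elements higher and 0 lower (1 lower at an unadjusted p under 0.05 in edgeR's test). Its summed count rose by a log2 value of 2.17 (SE 0.096, adjusted p = 1.80e-16). Of 25 IAP elements 22 were higher. IAPEz-int, the internal part of the commonest IAP, went from 18126, 18748 and 18397 to 310699, 340208 and 332784 (log2 fold change 4.15, SE 0.10, adjusted p = 3.66e-34). IAP1-MM_I-int went from 405, 432 and 472 to 15593, 17155 and 17283 (log2 fold change 5.26, SE 0.12, adjusted p = 6.70e-35), and the promoter-bearing terminal repeat IAPLTR1_Mm from 1584, 1519 and 1506 to 22021, 24948 and 23679 (log2 fold change 3.94, SE 0.12, adjusted p = 4.57e-31). Every 6KO1 library was above every parental one, which the choice of the largest rises required. MMERVK10C-int, already raised in E1 S1S2 against a WT mean of 3323, went from 78593, 86412 and 82224 to 408288, 431382 and 435639 (log2 fold change 2.37, SE 0.094, adjusted p = 3.91e-26). RLTR9A3A, an ERVK terminal repeat, went from 11.7, 10.9 and 7.2 to 892, 834 and 795 (log2 fold change 6.37, SE 0.18, adjusted p = 2.35e-31).

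The ERV1 family had 41 of 105 elements higher and 1 lower, but its most abundant internal elements were not called. MMVL30-int stood at 294213, 306610.4 and 300401 in E1 S1S2 and 248952, 245186 and 254600.4 in 6KO1 (log2 fold change -0.27, SE 0.14, adjusted p = 0.0929) and MuLV-int, of the murine leukaemia virus group, at 113116, 104954 and 115477 in E1 S1S2 and 163268, 138829.8 and 141810.3 in 6KO1 (log2 fold change 0.41, SE 0.10, adjusted p = 8.06e-04). Both had been high in E1 S1S2, where WT means were 4849 and 4624. RLTR6_Mm, a terminal repeat of the VL30 group, was the most abundant of the 6 elements that fell, from 14362, 14416 and 14200.5 to 6659, 6551 and 7328 (log2 fold change -1.07, SE 0.16, adjusted p = 1.83e-07). The ERVL and ERVL-MaLR families had 9 of 92 (9.78%) and 5 of 92 (5.43%) elements higher, below the 23.7% over all repeats. Their summed counts rose less than 2-fold, by log2 values of 0.50 and 0.43 (edgeR's test, adjusted p = 4.84e-04 and 0.00287). At an unadjusted p under 0.05 in that test, 47 and 63 elements were higher and 3 and 2 lower. With factors from repeats alone the summed counts changed by 0.089 and 0.027.

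L1 elements rose by subfamily. Of 224 elements 75 were higher and 0 lower (5 lower at an unadjusted p under 0.05), and of the 63 named L1Md, which include the young mouse subfamilies, 45 were. Under scaling by the repeats themselves, described above, 40 of these 224 were higher and 1 was lower. The A group had 16 of 18 higher (median 1.70), the Tf group 5 of 7 (median 1.01) and the Gf group 4 of 5 (median 1.35). L1MdA_III went from 4360.2, 4867 and 4608 to 19508, 16840.0 and 17488 (log2 fold change 1.96, SE 0.11, adjusted p = 7.47e-20) and L1MdTf_III from 1926, 1988 and 1932 to 6644, 5686 and 5534 (log2 fold change 1.61, SE 0.11, adjusted p = 8.98e-18). The groups did not overlap in these elements.

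Satellites were not uniform. GSAT_MM went from 4216, 4876 and 4444 to 29821, 25241 and 29008 (log2 fold change 2.63, SE 0.12, adjusted p = 1.53e-24), on top of a parental level above the WT mean of 269. MMSAT4 went from 5126, 5963 and 5507 to 17638, 19096 and 19556 (log2 fold change 1.76, SE 0.12, adjusted p = 6.41e-17). SYNREP_MM stood at 168, 218 and 208 in E1 S1S2 and 167, 209 and 187 in 6KO1 (log2 fold change -0.076, SE 0.15, adjusted p = 0.712). So 2 of the 5 satellite elements tested were called, both higher.

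**Figure D4:**
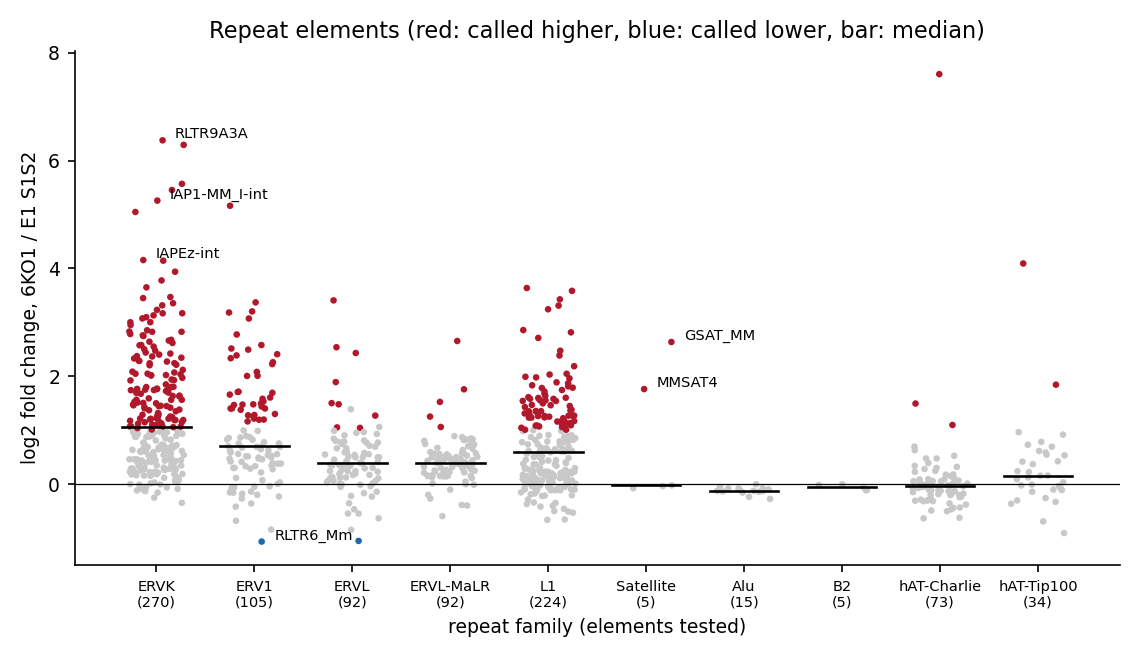
Log2 fold change of each repeat element between 6KO1 and E1 S1S2, by family with the number of elements tested, red where called higher, blue where called lower, with a bar at each family's median. Of the families drawn, ERVK has the highest median, 1.06 over 270 elements, while the Alu and B2 families of SINE lie close to 0 throughout.

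G9a and Glp mutations were also added in the second clonal series, from E1E2 (lacking Eset1 and Eset2) to E1E2 G9Gl, a step that shares no library with the first. Both lines of that step were single clones given 4-OHT in the same way. The steps differ in the background on which G9a and Glp were mutated, Suv39h1/2 mutant in the first and Eset2 mutant in the second, in the added Eset2 mutation of the first, and in the clones, and these cannot be told apart. Ehmt2 fell in both, by log2 values of -1.98 and -2.08. In the second step 2754 genes (14.8%) were higher and 1258 (6.78%) lower. Of the rises of the first step 1449 were also called higher in the second (47.9% of the first and 52.6% of the second list), and of the falls 291 (31.2% and 23.1%). Opposite calls were made for 175 of the rises and 134 of the falls. The fitted difference between the steps was higher in the first for 1714 genes (9.23%) and lower for 1548 (8.34%) of the 18565.

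Immune genes were called in both steps, with differences in size and direction. Trim30a, Oas1a and H2-K1 had log2 fold changes of 6.08, 4.31 and 3.80 in the first and 6.17, 4.87 and 2.36 in the second. Of 30 interferon-stimulated genes 10 were higher and 5 lower in the second step, and the difference was higher in the first for 18 and lower for 1. Over all genes the shares were 14.8% and 6.78% in the second step, and 9.23% and 8.34% for the difference. Irf7 rose in the second step from 412, 469 and 370.1 to 841, 822 and 834, and the difference was 1.98, SE 0.31, adjusted p = 1.46e-05. Ccl5, a chemokine, fell there from 1088, 1268 and 1244 to 24.8, 22 and 25.9, against a rise from 376, 408 and 389 to 832, 793 and 952 in the first. Irf7 thus differed in size by the test of the difference, and Ccl5 was called in opposite directions.

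p53 targets separated the steps. In the second step 0 were higher and 13 lower of 24 (median -1.06), against 14.8% and 6.78% of all genes, and the difference was higher in the first for 17 and lower for 0. Cdkn1a went from 949, 993 and 963 in E1E2 to 243, 234 and 242 in E1E2 G9Gl, a fall, where it rose in the first step (difference 3.95, SE 0.088, adjusted p = 5.81e-20). Trp53inp1 went from 1210.2, 1259.9 and 1251 to 216, 205 and 228 (difference 4.68, SE 0.099, adjusted p = 2.75e-20). In both genes the steps went in opposite directions in all libraries. The 2-cell stage genes, all higher in the first step where tested, had other calls, with 1 higher and 7 lower of 10 in the second step, and Zfp352 at 3.94, 1.11 and 6.2 in E1E2 and 0, 0 and 0 in E1E2 G9Gl. MERVL-int did not follow them. It rose in the second step as well (log2 fold change 1.05, SE 0.11, edgeR adjusted p = 1.71e-11), and its difference between the steps, -0.10, was not called.

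The chromosome 4 zinc finger cluster was another difference. From Zfp988 to Zfp534 (chr4:147305674-147702553) 9 neighbours rose in the first step, with a median log2 fold change of 3.81, and 4 of them fell in the second (median -0.67). Zfp985 went from 34.5, 44.3 and 26.9 to 1.08, 2.31 and 0 there (difference 11.91, SE 0.48, adjusted p = 1.77e-14). Protocadherins were lower in the first step by the test of the difference for 15 of 35 genes and higher for 0. Over all genes these shares were 8.34% and 9.23%. Twist1 and Grb10, which fell in the first step, had log2 fold changes of -0.14 and -0.43 in the second, and Col6a3 and Peg3, which rose, had -0.079 and -0.94. Prl3d2 and Rhox5 rose in both, by 10.47 and 9.15 in the second.

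Repeats rose in more elements in the second step, 405 (33.6%, with 12 or 0.994% lower) against 286, and 243 were shared (85.0% of the first and 60.0% of the second list). The difference was higher in the first step for 39 elements (3.23%) and lower for 117 (9.69%). Major satellite RNA differed by step, since GSAT_MM stood at 534, 621 and 603 in E1E2 and 461, 397 and 403 in E1E2 G9Gl (difference 3.11, SE 0.16, adjusted p = 6.55e-21). SYNREP_MM showed the converse, at 46.3, 42.1 and 53.8 and 446, 348 and 299 (difference -3.02, SE 0.23, adjusted p = 7.68e-15). IAPEz-int rose in both, from 18161, 17852 and 17537 to 98665, 101634 and 99363 in the second, and the rise was larger in the first (difference 1.67, SE 0.13, adjusted p = 7.52e-15). RLTR6-int rose only in the second series by the call, from 23187, 22837 and 22506 to 704087, 670360.4 and 631752, against 37805, 36263 and 36694 in E1 S1S2 and 27691, 27621 and 27560.2 in 6KO1 (difference -5.29, SE 0.22, adjusted p = 1.10e-24). Summed LTR and LINE counts gave ratios of 2.59 and 2.43 in the second step, compared with 2.06 and 1.74 in the first, and satellites 1.23 compared with 3.12.

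**Figure D5:**
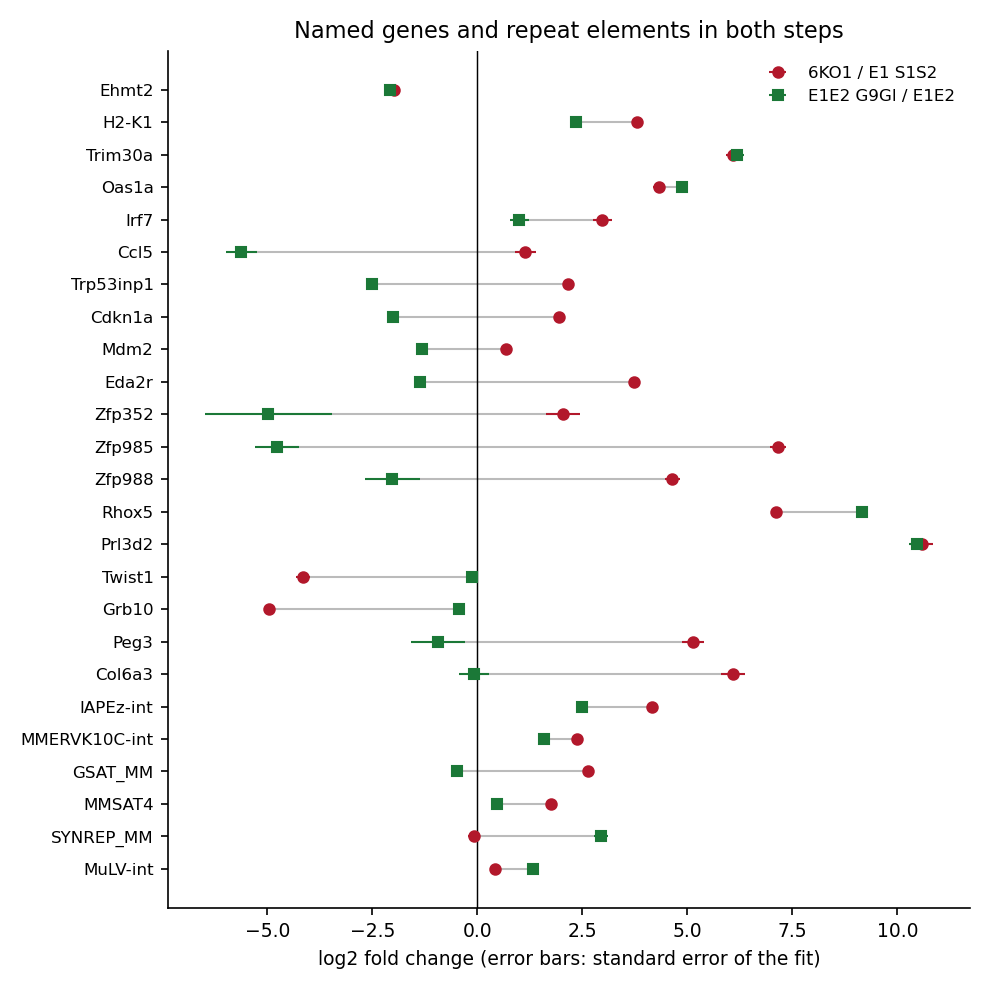
Log2 fold changes of named genes and repeat elements, red circles for 6KO1 against E1 S1S2 and green squares for E1E2 G9Gl against E1E2, with bars at the standard error of the fit. Trim30a and Prl3d2 nearly coincide, whereas Zfp985, Cdkn1a and Trp53inp1 lie on opposite sides of 0.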

How the data were processed

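The series held 24 RNA-seq libraries of MEFs in 8 conditions, 3 per condition, made from total RNA with a stranded kit and read as paired ends. Per the labels, the notes of the submitters name STAR 2.5.2b and cutadapt 1.8.1. The authors deposited raw counts per gene and per repeat element for every library, made with TEtranscripts on GRCm38 with a repeat annotation. The strand setting of the counting is not given in the sources used here, so reads of overlapping genes on opposite strands may not be separable. The values were whole numbers, and 1 malformed entry with 0.00201% of the counts was left out. Of 47937 gene entries 47310 had a symbol. Counts were fitted in R 4.3.3 with edgeR 4.0.16 (quasi-likelihood test, TMM factors from genes, genes and repeats filtered with edgeR's default rule) with 1 coefficient per condition over all 24 libraries. Repeat elements and families used the gene factors and library sizes. Calls required a 2-fold change either way and a Benjamini-Hochberg adjusted p of at most 0.01 over all features tested. Class totals were compared with an exact permutation test. Replicates differed by more than sampling noise, with a chi-square per gene of 2.12 to 10.5. Intervals and floors cover counting error only, and p-values measure the spread between cultures of a clone. On simulated counts for the 6KO1 step, 83 of 100 genes changed by a log2 value of 1.5 and 92 of 100 changed by 2.5 were called, with 0 others, over 18565 genes. Among repeats 96 and 100 of 100 were called over 1207 elements. The simulation changed few features, equally up and down, from means over all 24 libraries, unlike the step itself. It therefore cannot show how scaling or low counts affect the calls made here. The members of the gene lists, the lists and the tests were chosen with earlier results of these data known. The text names the 6 methyltransferase genes, the 12 largest rises and falls among called protein-coding genes with a mean of at least 100 and no overlap, up to 4 called members of each list and members the study names, a set of repeat elements with the 8 largest rises and 6 largest falls, and the 5 largest differences between steps each way. Other list members and L1 elements were chosen for description after their values were seen. Some genes that this rule names are not reported here. Alternatives covered DESeq2 1.42.0, RLE factors, the count filters, the libraries in the fit, repeat scaling, the largest element and each library left out.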

Additional observations from a re-analysis of the deposited data

Results flagged for a closer look

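The results gathered here are those whose effect differed between the step from E1 S1S2 to 6KO1 and the step from E1E2 to E1E2 G9Gl, by the test of the difference itself in edgeR's quasi-likelihood fit. The differences are given as log2 values, first step minus second. For each the cause of the difference was not tested, and the added Eset2 mutation, the background and the clones cannot be told apart.

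Among genes with a higher log2 fold change in the first step, Cdyl2 differed by 11.09, as it went from 387, 372 and 375 in E1E2 to 0, 1.16 and 0 in E1E2 G9Gl while it rose in the first step. Zfp985 differed by 11.91, Trp53inp1 by 4.68, Cdkn1a by 3.95, Irf7 by 1.98 and Pik3r5, a regulatory subunit of a phosphoinositide kinase, by 2.28, although it was not called in the first step (0.57) and had a log2 fold change of -1.70 in the second. The inflammatory genes Acod1, which makes itaconate, and Ccl20, a chemokine, differed by 11.09 and 11.24. Acod1 stood at 0.783, 2.72 and 0 in E1 S1S2 and 215, 242 and 242 in 6KO1 and at 26.6, 31 and 16.5 in E1E2 and 1.08, 2.31 and 2.59 in E1E2 G9Gl. Ccl20 stood at 0, 0 and 0.899 in E1 S1S2 and 259, 269.8 and 252 in 6KO1. Sfrp2, a secreted Wnt antagonist, differed by 12.44, with group means of 4.09 ± 2.01 in E1 S1S2 and 17.2 ± 2.47 in 6KO1 (SD, n = 3), and fell from 148, 173 and 177 to 0, 0 and 0 in the second step. The size of these values depends on the prior count where a group is near 0.

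Among genes lower in the first step relative to the second, Dtna differed by -11.28, since it fell in the first and went from 57.2, 66.4 and 41.4 to 508, 538 and 519 in the second. Cdk1, Cdk2 and Cdk4 differed by -1.02, -1.01 and -1.11. Gdf6, a growth factor of the BMP family, differed by -13.39, 4930486L24Rik by -12.92, Akr1cl by -11.53 and Colec10 by -11.33. These 4 genes had between 0 and 8 reads per line in the 6 libraries of the first step, so the difference arises from the second, where Gdf6 went from 0, 0 and 0 to 439, 394 and 392.

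Among repeats, GSAT_MM differed by 3.11, MMSAT4 by 1.30, IAPEz-int by 1.67, RLTR9A3A by 4.52, RMER17A-int by 2.83 and ERVB4_1-I_MM by 3.03, all higher in the first step. SYNREP_MM differed by -3.02, MURVY-int by -7.64, RLTR6B_Mm by -5.41, RLTR6-int by -5.29, IAPLTR3-int by -4.94 and MER57E2 by -4.47, all lower in the first. MURVY-int stood at 304, 292 and 274 in E1 S1S2 and 176, 152 and 157 in 6KO1 and went from 88.7, 106 and 92 to 11173, 10641 and 10032 in the second step. The small nuclear RNA U2 differed by 6.12, which rests on 1 library, since E1E2 held 153, 39379.5 and 188 and E1E2 G9Gl 206, 206 and 198.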

How the results depend on the processing

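Calls under another setting mostly stayed on the same side. Requiring a mean normalised count above 100 left 826 genes higher and 442 lower, and 791 and 912 for the difference between the steps, because fewer genes were tested. Dropping the 2-fold minimum gave 5647 genes higher and 4258 lower, and 518 repeat elements higher and 28 lower. With factors from repeats alone, 190 elements were higher and 34 lower, the difference counts were 63 and 69, the ERV1 total turned to -0.043 (from 0.36), and the class ratios were 0.709 (SINE), 1.31 (LINE), 1.55 (LTR), 0.730 (DNA) and 2.36 (Satellite), because the rise of some repeats lowers the scaled value of the rest. When genes and repeats were pooled for scaling, the LTR ratio was 1.98, and without its largest element, MMVL30-int, 2.53. After the values were seen, the ERVK ratio of 4.50 was recomputed without its largest element as 4.18 and the satellite ratio of 3.12 as 2.99.

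Leaving out each library in turn gave 2880 to 3008 genes higher and 907 to 978 lower, 1560 to 1659 and 1477 to 1606 for the difference, 265 to 287 repeat elements higher and 3 to 7 lower (3 without E1 S1S2 replicate 2), and 34 to 40 and 102 to 124 for the repeat difference. Class ratios ranged over 0.905 to 0.967 (SINE), 1.68 to 1.8 (LINE), 2.03 to 2.07 (LTR), 0.934 to 0.995 (DNA) and 3.01 to 3.24 (Satellite). Setdb1, not called, changed sign, to -0.038 without the count filter, -0.0087 with only the 6 libraries, and between -0.034 and 0.036 when a library was left out. Ehmt1 and Cdk4 passed the limit without 6KO1 replicate 1 (-1.02) and 6KO1 replicate 2 (-1.01). Kdm4d, Pcdhb21, Hoxc12, Myf6 and Esrrb lost the call under some alternatives. The cause of these changes was not tested. Depth limits genes with few reads, whose folds are bounds or carry wide counting intervals.

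Replicate numbers did not pair the libraries, as the correlation of same-numbered deviations lay between -0.038 and 0.022 for this step. With the replicate number as a block, 3007 genes were higher and 928 lower, 1692 and 1538 for the difference, 286 repeat elements higher and 6 lower, and 37 and 115 for the repeat difference, and among named genes Myf6 lost the call.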
